A study of Rattus norvegicus with 18 samples.

Results

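The balance between matrix metalloproteinases and their inhibitors was followed here at the level of messenger RNA (mRNA) in 9 genes. These were the inhibitors Timp1, Timp2, Timp3 and Timp4, the matrix metalloproteinases Mmp2, Mmp3, Mmp9 and Mmp14, and the related protease Adamts1. They were taken by name from the 31463 rows of the deposited tables, all 9 were found, and 7 of them had enough counts for a test, against 14398 tested rows in all. Mmp3 and Mmp9 were too low. The study had already singled out Timp1 and Adamts1 in these samples, so the values of those genes are not independent evidence of their direction.

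Matrix metalloproteinases are zinc enzymes that cut proteins of the extracellular matrix, along with growth factors and receptors at the cell surface. Most are made as inactive precursors, so that activating proteases and inhibitors decide how much activity appears. The tissue inhibitors of metalloproteinases (TIMPs) block the active site of these enzymes, and in the brain Timp1 is known as a gene that reactive astrocytes switch on after injury. The genes of the family are also known for their part in the opening of the blood-brain barrier and in the remodelling of perineuronal matrix after excitotoxic injury, which is damage of neurons by excess glutamate.

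RNA sequencing had been done on primary neuroglial cultures from the cerebral cortex of newborn Wistar rats, which hold neurons and glia and had been treated with cytosine arabinoside to limit dividing cells. They were treated on day 10 in vitro, and RNA was taken 4 h after the glutamate exposure. The 18 libraries formed 6 groups of 3. Control cultures received neither glutamate nor a test agent. Glutamate cultures received 100 µM glutamate. Memantine cultures received 100 µM memantine, which blocks NMDA receptors for glutamate. Their label names no glutamate, and the series' design text places them in the glutamate model. Glutamate_vesicles, Glutamate_secret and Glutamate_BPC cultures had been given material secreted by human glial progenitor cells on the day before glutamate. The vesicle group received extracellular vesicles. Of the other two, one was given secreted proteins of a size range and the other the whole secretome, and since the labels do not say which is which, their names are used as they stand. The study states of its experiments in general that unrelated cultures were used, and it names a covariate of day for some plots, but the labels tie no library to a culture or a day. The p-values therefore measure the spread between these libraries, part of which may be technical. A library is named by its group and number.

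The depth of the libraries lay between 8409574 counts (Control 1) and 17206354 counts (Glutamate_vesicles 2), and the share of counts on ribosomal RNA (rRNA) rows from 3.04% to 43.0%, the latter in Control 1. The TMM factors, by which the library sizes were scaled, ran from 0.417 (Control 1) to 1.58 (Memantine 2). All 6 neuronal markers were found in every library, and their summed level was 1907 to 2588 CPM, the count scaled to a common library size, in Control, 535 to 1040 CPM in Glutamate, 596 to 3010 CPM in Memantine and 460 to 970 CPM over the other 9 libraries. In bulk samples, fewer cells of a type and less RNA per cell cannot be told apart. The 6 astrocyte markers, also found in every library, summed to 1826 to 5252 CPM in Control, 4867 to 8831 CPM in Glutamate, 3319 to 7911 CPM in Memantine and 3055 to 11076 CPM over the preparation groups. Microglial markers summed to 36.8 to 98.3 CPM in Control and 86.2 to 298 CPM in Glutamate, and reached from 26.4 to 555 CPM over the other 12 libraries, with Itgam at 0 in 3 of the 18 libraries. Markers of fibroblasts and mural cells, which produce much matrix, summed to at most 19.5 CPM in any library, and Rgs5 was found in 2 of 18. Markers of the oligodendrocyte lineage summed to 325 to 565 CPM in Control, 604 to 824 CPM in Glutamate, 304 to 640 CPM in Memantine, 746 to 1187 CPM in Glutamate_vesicles, 536 to 1081 CPM in Glutamate_secret and 616 to 991 CPM in Glutamate_BPC, with Mog at 0 in 1 library. Endothelial markers summed to at most 3.92 CPM. The part of cell composition in the values below was not tested.

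No tested member passed an adjusted p of 0.05 in any of the 9 comparisons or in the test over the 6 groups (edgeR quasi-likelihood test, Benjamini-Hochberg adjustment). Over the whole table, that threshold was passed by 0.00695% of the 14398 rows in the test over the 6 groups and by 0.0139% in Glutamate_vesicles against Control, and by 0% in each of the other 8 comparisons. At an unadjusted p under 0.05, 0 of 7 members passed in the test over the 6 groups, where 7.75% of all rows did. Adamts1 (F = 2.85, adjusted p = 0.652), Timp1 (F = 2.79, adjusted p = 0.681) and Mmp14 (F = 2.61, adjusted p = 0.738) had the smallest p of the 7, and for Timp4, Timp2, Timp3 and Mmp2 the F statistics were 1.21, 0.674, 0.626 and 0.359, with adjusted p = 1.00 for each.

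**Figure D1:**
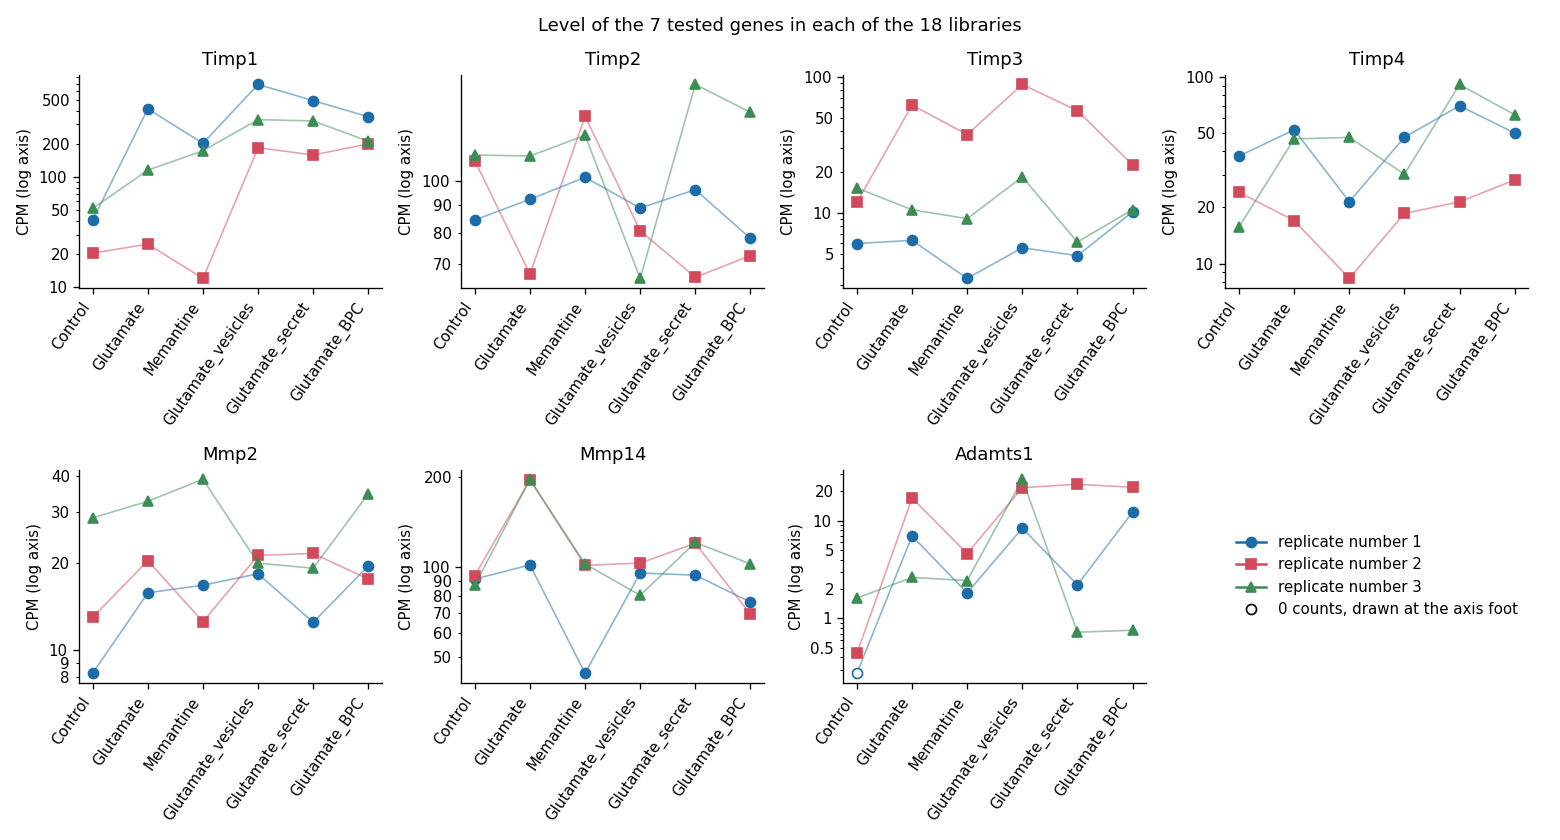
CPM on a log axis for the 7 tested genes in the 6 groups, with 1 point per library and a line joining libraries of the same replicate number. Timp1 is lowest in the library numbered 2 in 6 of 6 groups, Timp3 is lowest in the library numbered 1 in 6 of 6, and both Mmp14 values near 195 CPM belong to Glutamate. The order of the numbers is that of CPM after TMM scaling.

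Timp1 encodes a secreted inhibitor of most metalloproteinases. Its promoter and that of Adamts1 are shown because these genes had the largest fold changes among the members in Glutamate against Control. The bases are those of RefSeq on the build GRCr8, which is another build than the one the authors used, and they run 5′ to 3′ on the gene's strand over the 250 bases before the annotated start. Letters of an AP-1 motif, the recognition sequence of the Fos and Jun transcription factors, were searched as TGANTCA, which reads the same on both strands, and as the related letters TGAGTAA on both strands. The latter search was added after the Timp1 sequence had been read. Matches are in capitals.
Timp1, chrX:3771123-3771372, minus strand: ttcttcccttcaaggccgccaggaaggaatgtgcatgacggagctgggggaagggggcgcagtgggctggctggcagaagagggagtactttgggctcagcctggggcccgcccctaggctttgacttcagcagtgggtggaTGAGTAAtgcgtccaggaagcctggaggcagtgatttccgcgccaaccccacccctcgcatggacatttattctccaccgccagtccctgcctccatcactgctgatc
Adamts1, chr11:38427385-38427634, minus strand: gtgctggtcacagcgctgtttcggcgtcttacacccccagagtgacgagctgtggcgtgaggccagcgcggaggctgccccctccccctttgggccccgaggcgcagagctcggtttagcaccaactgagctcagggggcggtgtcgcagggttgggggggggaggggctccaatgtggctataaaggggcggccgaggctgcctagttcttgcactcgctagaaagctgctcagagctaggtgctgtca
The Timp1 window held TGAGTAA once, with its first base at position -108 from the start site. TGAGTAA was present in 2.90% and TGANTCA in 7.33% of the 33469 promoter windows of 300 bases in the table. Neither was found in the windows of Adamts1, Timp2, Timp3 or Timp4. The window of Mmp3, a gene with 2 counts in all 18 libraries, held both, TGANTCA at -71 and TGAGTAA at -144. The table gave windows for 6 of the 9 members, and Mmp2, Mmp9 and Mmp14 were not among them.

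In Control, Timp1 was at 40.8, 20.4 and 51.9 CPM in replicates 1, 2 and 3. In Glutamate it was at 414, 24.6 and 115 CPM. Glutamate 1 and 3 thus lay above all Control libraries and Glutamate 2 lay within the Control range. Each Glutamate library exceeded the Control library of the same number, by 10.1-fold, 1.21-fold and 2.22-fold. The numbers do not pair the libraries of these groups by their deviations from the group means (lowest r = -0.117). With SE here and below worked back from the test statistic, the fitted log2 fold change was 2.29 (SE 0.957, adjusted p = 0.524). It rests largely on Glutamate 1. Without that library it was 0.90 (adjusted p = 0.931), and without Glutamate 2 it was 2.82 (adjusted p = 0.604).

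In Memantine, Timp1 was at 202, 12.1 and 173 CPM. In Glutamate_vesicles it was at 689, 184 and 331 CPM. In Glutamate_secret it was at 492, 158 and 322 CPM, and in Glutamate_BPC at 352, 199.6 and 211 CPM. The 9 libraries of the 3 preparation groups lay between 158 and 689 CPM and so above every Control library, whereas Memantine 2 was the lowest of the 18. Ordered by mean, the groups ran from Glutamate_vesicles (402 ± 260 CPM, SD, n = 3) over Glutamate_secret (324 ± 167 CPM), Glutamate_BPC (254 ± 84.8 CPM), Glutamate (185 ± 204 CPM) and Memantine (129 ± 102 CPM) to Control (37.7 ± 16.0 CPM). Each pair of neighbours in this order overlapped in range.

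Against Control, the log2 fold change of Timp1 was 3.41 in Glutamate_vesicles (SE 1.00, adjusted p = 0.210), 3.10 in Glutamate_secret (SE 0.989, adjusted p = 0.225) and 2.75 in Glutamate_BPC (SE 0.974, adjusted p = 0.318). Memantine differed by 1.77 (SE 0.940, adjusted p = 1.00), which was the smallest p of the 7 members in that comparison. These comparisons share the 3 Control libraries. For Glutamate_vesicles and Control the replicate numbers paired the libraries by their deviations from the group means (lowest r = 0.208). With the replicate number as a block in the fit to all 18 libraries, the log2 fold change was 3.24 (SE 0.632, adjusted p = 0.0245). This fit takes in groups whose numbers do not pair by the check, such as Glutamate_secret with Control (lowest r = -0.454). In that blocked fit 2 of 7 members passed, Timp1 and Adamts1, where 3.74% of all rows did. The likelihood-ratio test of edgeR (adjusted p = 0.0418) and DESeq2 (adjusted p = 0.0115) also put Timp1 past the threshold in this comparison, where they called 1.11% and 3.39% of all rows. DESeq2 did so in Glutamate_secret against Control (adjusted p = 0.0221), where it called 3.08% of all rows.

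Against Glutamate, Timp1 had log2 fold changes of -0.52 (SE 0.914) in Memantine, 1.12 (SE 0.922) in Glutamate_vesicles, 0.81 (SE 0.917) in Glutamate_secret and 0.46 (SE 0.913) in Glutamate_BPC. None had p under 0.05 without the replicate block. All 4 share the Glutamate libraries. By the check, the numbers pair Memantine, Glutamate_secret and Glutamate_BPC with Glutamate, but not Glutamate_vesicles (lowest r = 0.00459). With the block, these 3 had -0.40 (SE 0.587), 1.26 (SE 0.597) and 1.13 (SE 0.606), and Glutamate_vesicles had 1.51 (SE 0.598). Only Glutamate_vesicles then passed the unadjusted threshold of 0.05 for Timp1. In that blocked comparison 2 of 7 members passed it, Timp1 and Mmp14, beside 3.22% of all rows. The adjusted threshold was passed by 0 of all rows in any of the 4. Among libraries of equal number, the preparation groups were above Glutamate in 8 of 9 pairs, the exception being Glutamate_BPC 1. The gap was widest for number 2, where Glutamate_vesicles, Glutamate_secret and Glutamate_BPC exceeded Glutamate 7.48-fold, 6.43-fold and 8.10-fold. How many of all rows went 1 way in 8 of 9 pairs was not counted. The 3 Control libraries and Memantine 2 had neuronal sums of 1907 to 2588 CPM with Timp1 at 12.1 to 51.9 CPM, and the 9 preparation libraries had sums of 460 to 970 CPM with Timp1 at 158 to 689 CPM. Memantine 1 had the highest neuronal sum of all libraries (3010 CPM) with Timp1 at 202 CPM, and Glutamate 2 had a low neuronal sum (535 CPM) with Timp1 at 24.6 CPM. The part of neuronal content in the level of Timp1 was not tested.

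**Figure D2:**
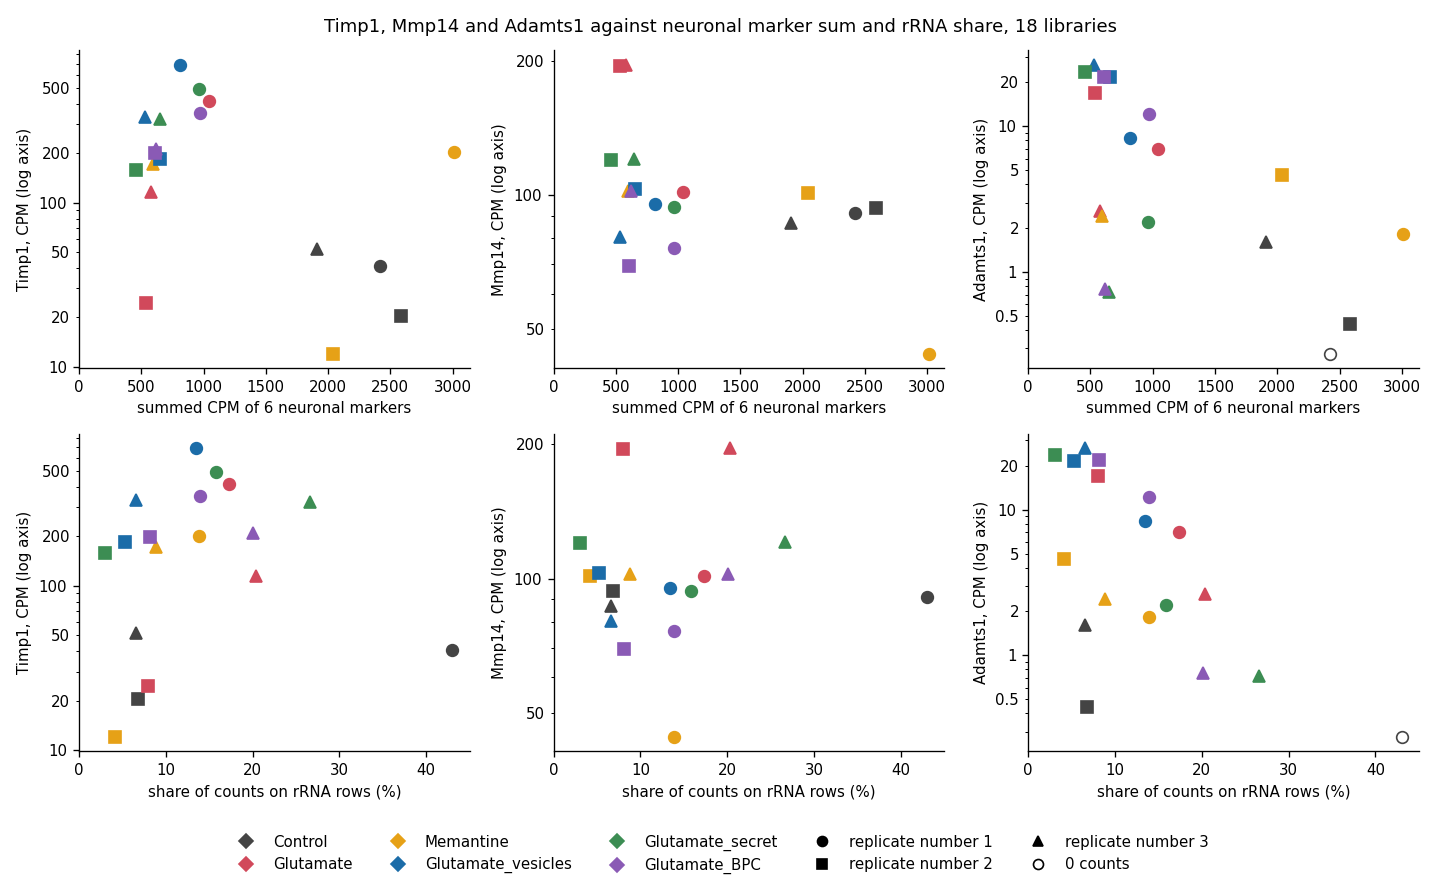
CPM of Timp1, Mmp14 and Adamts1 (log axes) in the 18 libraries against the summed CPM of 6 neuronal markers (upper row) and the percentage of counts on rRNA rows (lower row), coloured by group and shaped by replicate number. Memantine 1 combines a neuronal sum of 3010 CPM with Timp1 at 202 CPM, Glutamate 2 and 3 stand above the other libraries for Mmp14, and Control 1, with 43.0% rRNA, had 0 counts of Adamts1.

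Timp2 encodes an inhibitor that also helps the membrane protease Mmp14 to activate the Mmp2 precursor. It varied least among the inhibitors, between 65.8 and 151 CPM over the 18 libraries. It was at 84.5, 109 and 112 CPM in Control and at 92.3, 67.0 and 111 CPM in Glutamate, and these ranges overlapped. The log2 fold change was -0.17 (SE 0.347, adjusted p = 0.999). No comparison gave Timp2 a p under 0.05.

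Timp3, an inhibitor that stays bound to the matrix and also acts on ADAM and ADAMTS proteases, had levels that went with the replicate number. In Control it was at 6.0, 12 and 15.3 CPM, and in Glutamate at 6.33, 62.0 and 10.6 CPM. In Glutamate_vesicles the values were 5.58, 87.8 and 18.4 CPM. The libraries numbered 1 lay between 3.33 and 10.2 CPM and those numbered 2 between 12 and 87.8 CPM, without overlap, and number 2 was highest in 5 of 6 groups. The log2 fold change in Glutamate against Control was 1.23 (SE 1.15, adjusted p = 0.984), and it turned to -0.40 without Glutamate 2.

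Timp4, an inhibitor known from heart and brain, was lowest in the library numbered 2 in 5 of 6 groups. It was at 37.7, 24.1 and 15.7 CPM in Control and at 52.2, 17 and 46.6 CPM in Glutamate. The highest levels were those of Glutamate_secret 3 and 1, with 91.2 and 70.1 CPM. The ranges of Control and Glutamate overlapped, and the log2 fold change was 0.58 (SE 0.649, adjusted p = 0.999). The labels do not say what a replicate number stands for. The TMM factors also differed between numbers. They were 0.417 to 0.946 in the libraries numbered 1, 1.25 to 1.58 in those numbered 2 and 0.555 to 1.42 in those numbered 3. The part of this scaling in the order of the numbers was not tested. The rRNA share differed between numbers, at 13.4% to 43.0% in the libraries numbered 1, 3.04% to 8.15% in those numbered 2 and 6.58% to 26.6% in those numbered 3, which overlapped with both, and the part of this in the levels of Timp1, Timp3 and Timp4 was not tested beyond the fits with the rRNA share or the replicate number as a term.

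Mmp14 encodes a membrane-bound metalloproteinase that cuts matrix at the cell surface and activates the Mmp2 precursor. It had nearly equal levels in the Control libraries, at 91.1, 93.5 and 86.8 CPM. In Glutamate it was at 102, 195 and 196 CPM, so that all Glutamate libraries lay above all Control libraries. The log2 fold change was 0.86 (SE 0.350, adjusted p = 0.499). With each Glutamate library left out in turn, it was 1.12, 0.72 and 0.72.

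Mmp14 was lower in the 4 treated groups than in Glutamate when libraries of equal number were compared, in 12 of 12 pairs. These pairs reuse the same 3 Glutamate libraries, and by the check the numbers do not pair Glutamate_vesicles with Glutamate (lowest r = 0.00459). Among libraries numbered 1, Glutamate_vesicles and Glutamate_secret were at 0.94-fold and 0.92-fold of Glutamate. How many of all rows went 1 way in every pair was not counted. In Memantine it was at 44.1, 101 and 102 CPM. In Glutamate_vesicles it was at 95.4, 103 and 80.4 CPM. Glutamate_secret had 93.9, 119.9 and 121 CPM, and Glutamate_BPC had 76.2, 69.5 and 102 CPM. The 12 libraries together reached from 44.1 to 121 CPM, and Glutamate 1 at 102 CPM lay inside this range, whereas Glutamate 2 and 3 lay above it. The difference from Glutamate was -0.99 on the log2 scale in Memantine (SE 0.351, adjusted p = 0.627), -0.82 in Glutamate_vesicles (SE 0.350, adjusted p = 1.00), -0.56 in Glutamate_secret (SE 0.349, adjusted p = 1.00) and -0.99 in Glutamate_BPC (SE 0.351, adjusted p = 1.00). These comparisons share the Glutamate libraries, which are also the high side of the difference from Control. Of the 7 members, 1 had p under 0.05 in each of Memantine, Glutamate_vesicles and Glutamate_BPC, namely Mmp14, and 0 did in Glutamate_secret. Over all rows these shares were 5.08%, 1.08% and 1.07%, and 0.681% in Glutamate_secret. Against Control, Mmp14 in the same 4 groups had log2 differences of -0.13, 0.04, 0.30 and -0.13, with an SE of 0.348 in each.

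**Figure D3:**
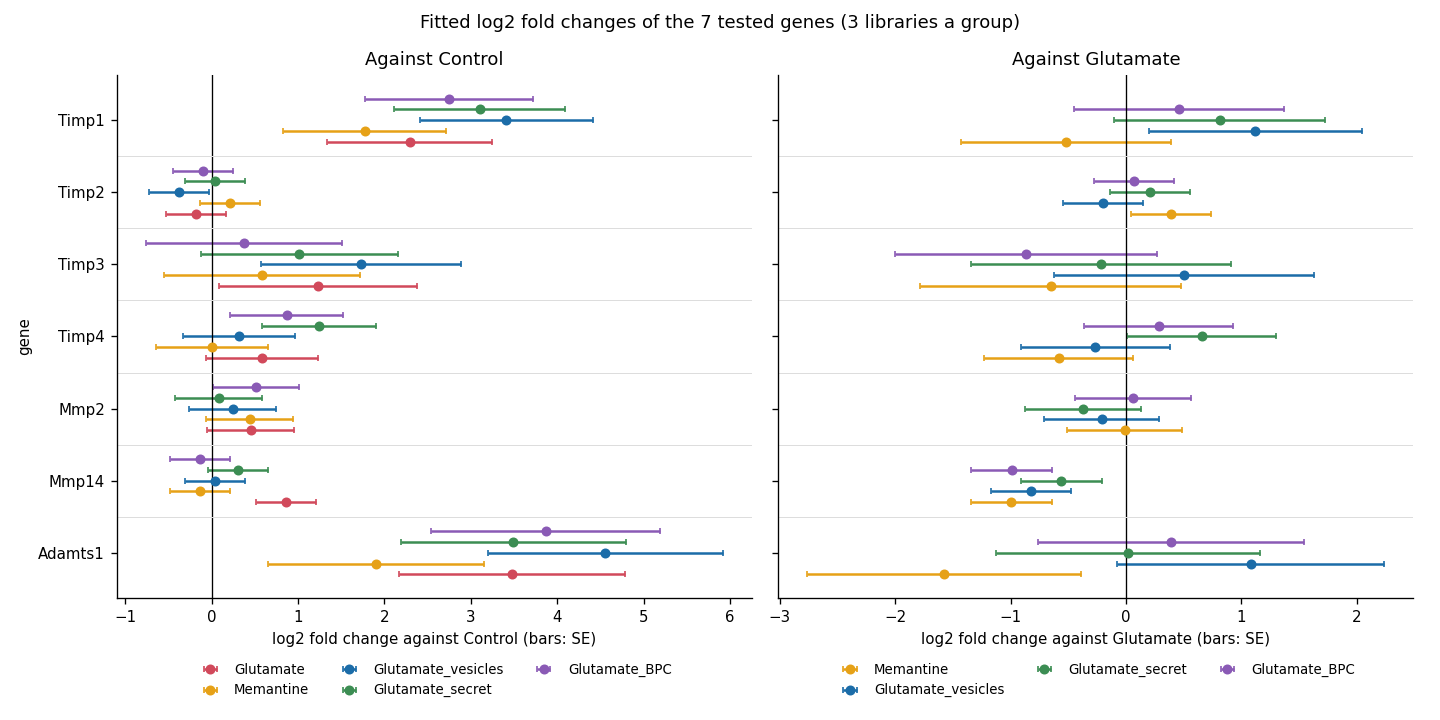
Fitted log2 fold changes of the 7 tested genes with SE worked back from the test statistic (bars), against Control on the left and against Glutamate on the right, coloured by group. Timp1 and Adamts1 lie to the right of 0 in all 5 groups against Control, and Mmp14 lies to the right of 0 in Glutamate against Control (0.86) and to the left of 0 in all 4 groups against Glutamate.

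Mmp2 encodes gelatinase A, a secreted protease that digests denatured collagen and basement membrane. It was at 8.28, 13 and 28.7 CPM in Control and at 15.8, 20.4 and 32.8 CPM in Glutamate, where each library exceeded the Control library of the same number while the ranges overlapped. By the check, the numbers do not pair these groups (lowest r = -0.117). The log2 fold change was 0.45 (SE 0.502, adjusted p = 0.999). Over the 18 libraries Mmp2 reached from 8.28 to 39.1 CPM, the highest level being that of Memantine 3.

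Mmp9 encodes gelatinase B, a protease often followed in brain injury. It had 19 counts in 5 of the 18 libraries, 10 of them in Memantine, and none in Control or Glutamate_BPC. Mmp3 encodes stromelysin-1, an activator of other metalloproteinase precursors, and it had 2 counts in 2 libraries. A count of 0 allows up to 3 counts, which came to 0.120 to 0.857 CPM depending on the library. These limits cover counting error only.

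Adamts1 encodes a secreted protease that cuts the proteoglycans aggrecan and versican. In Control it was at 0, 0.442 and 1.62 CPM, from 0, 9 and 30 counts. In Glutamate it was at 6.97, 17 and 2.63 CPM, from 54, 268 and 27 counts, so that all Glutamate libraries lay above all Control libraries in CPM. Glutamate 3 had fewer counts than Control 3, and the TMM factors of these libraries were 0.892 and 1.42. The order of these libraries thus rests on their scaled sizes. The 0 of Control 1 allows up to 0.857 CPM, since this library had the smallest scaled size. The log2 fold change was 3.48 (SE 1.31, adjusted p = 0.448). It stood at 2.58 without Glutamate 2 and at 4.79 without Control 3.

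In Memantine, Adamts1 was at 1.83, 4.61 and 2.44 CPM, above all Control libraries and below the Glutamate library of the same number in 3 of 3 pairs. In Glutamate_vesicles it was at 8.37, 21.7 and 26.4 CPM. In Glutamate_secret it was at 2.21, 23.5 and 0.724 CPM, and in Glutamate_BPC at 12.2, 21.9 and 0.759 CPM. All 3 vesicle libraries thus lay above all Control libraries, while Glutamate_vesicles 1 was below Glutamate_BPC 1. Glutamate_secret 3 and Glutamate_BPC 3 fell within the Control range. Their rRNA shares were 26.6% and 20.1%, beside 6.60% in Glutamate_vesicles 3, and fits with the rRNA share are given below. Against Control the log2 fold change was 4.56 in Glutamate_vesicles (SE 1.36, adjusted p = 0.219), 3.49 in Glutamate_secret (SE 1.30, adjusted p = 0.303) and 3.87 in Glutamate_BPC (SE 1.32, adjusted p = 0.304). Without Glutamate_secret 2 the value of that group was 0.88 (adjusted p = 0.658). For Glutamate_vesicles the fit with the replicate block gave 4.39 (SE 1.12, adjusted p = 0.0418). Against Glutamate, the difference was -1.58 (SE 1.19) in Memantine, 1.08 (SE 1.16) in Glutamate_vesicles, 0.02 (SE 1.15) in Glutamate_secret and 0.39 (SE 1.15) in Glutamate_BPC, and none had p under 0.05. The value of Glutamate_secret turned to -0.35 with the replicate block.

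Several libraries with little Adamts1 had much rRNA, and others did not. Control 1, Glutamate_secret 3, Glutamate 3 and Glutamate_BPC 3 had rRNA shares of 43.0%, 26.6%, 20.4% and 20.1% with Adamts1 at 0, 0.724, 2.63 and 0.759 CPM, whereas Control 2 had 6.80% rRNA with 0.442 CPM. When the log2 of the rRNA share was added to the model, Adamts1 passed the adjusted threshold against Control in Glutamate (log2 fold change 4.45, adjusted p = 0.0351), Glutamate_vesicles (4.43, adjusted p = 0.0334), Glutamate_secret (2.84, adjusted p = 0.0471) and Glutamate_BPC (4.58, adjusted p = 0.0369), and in the test over the 6 groups (adjusted p = 0.0245). In these fits 0.222%, 0.396%, 4.04% and 0.125% of all rows passed in the 4 comparisons in this order, and 2.67% over the 6 groups. The likelihood-ratio test (adjusted p = 0.0393) and DESeq2 (adjusted p = 0.00869) put it past the threshold in Glutamate_vesicles against Control, and DESeq2 also in Glutamate_BPC against Control (adjusted p = 0.0438), where 1.75% of all rows passed.

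**Figure D4:**
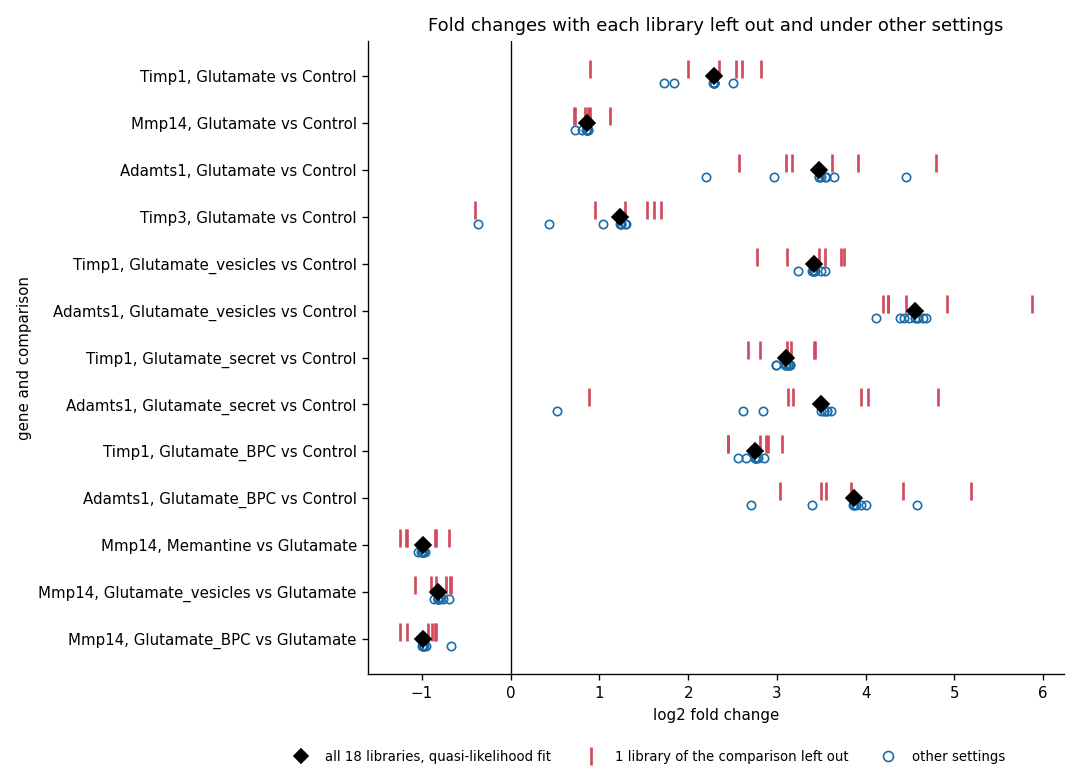
Log2 fold changes of Timp1, Timp3, Mmp14 and Adamts1 in the fit to all 18 libraries (black diamonds), with each library of the comparison left out in turn (red bars) and under other settings (blue circles). Timp1 in Glutamate against Control drops from 2.29 to 0.90 without 1 library, Timp3 turns negative, and Mmp14 against Glutamate remains negative throughout.

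Counted over the members, 3 of 7 had p under 0.05 in Glutamate against Control, all higher in Glutamate, where 8.11% of all rows had such a p. They were Mmp14, Timp1 and Adamts1. The libraries of both groups were fully separated in CPM for 2 of the 7, Mmp14 and Adamts1, and for 12.2% of all rows. For Adamts1 the separation rests on the scaled library sizes, since Glutamate 3 had fewer counts than Control 3. In Glutamate_vesicles, Glutamate_secret and Glutamate_BPC against Control, 2 of 7 had p under 0.05, Timp1 and Adamts1 in each, beside 11.6%, 11.8% and 11.3% of all rows. Ranges without overlap were found in these 3 comparisons for 2, 2 and 1 of the members, Timp1 in each, with Adamts1 in Glutamate_vesicles and Mmp14 in Glutamate_secret, beside 19.5%, 15.9% and 24.9% of all rows. In Memantine against Control 0 of 7 had p under 0.05, where 1.12% of all rows did, and 1, Adamts1, did not overlap, where 2.35% did. Against Glutamate all members overlapped in each of the 4 groups, where 2.86% of rows did not for Memantine, 6.27% for Glutamate_vesicles, 3.41% for Glutamate_secret and 7.13% for Glutamate_BPC. The median log2 fold change of the 7 members in Glutamate against Control was 0.86, beside 0.08 over all rows. The members were chosen with earlier results of these data known, and the study had already singled out Timp1 and Adamts1. These counts and this median therefore cannot be read as independent evidence about the set.

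Genes around this set were counted from lists of further metalloproteinases, ADAMTS and ADAM proteases, and activators and partners. None passed the adjusted threshold in any comparison. The urokinase receptor Plaur, which holds the plasminogen activator at the cell surface, was at 1.01 ± 0.368 CPM in Control, 1.11 ± 1.17 CPM in Glutamate, 3.41 ± 2.00 CPM in Glutamate_vesicles and 3.29 ± 0.676 CPM in Glutamate_BPC (SD, n = 3). Set against Glutamate, Plaur was higher by 1.66 (SE 0.676) and 1.61 (SE 0.677) on the log2 scale, with adjusted p = 1.00 in both. Its range overlapped that of Glutamate in Glutamate_vesicles and not in Glutamate_BPC. Of the 10 activators and partners, 1 had p under 0.05 in each of these comparisons, beside 1.08% and 1.07% of all rows. Plau, the urokinase that activates plasminogen, was at 1.31 ± 1.16 CPM in Control and 14.1 ± 10.1 CPM in Glutamate_vesicles (log2 fold change 3.29, adjusted p = 0.230). In that comparison 4 of the 10 had p under 0.05, beside 11.6% of all rows.

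Of 16 further metalloproteinases, 6 had enough counts for the test. Mmp17, which is anchored in the membrane by a lipid, was at 34.0 ± 9.69 CPM in Control and 13 ± 6.75 CPM in Glutamate, without overlap (log2 fold change -1.38, adjusted p = 0.547). In the preparation groups it was at 10.1 ± 4.19, 11 ± 4.84 and 13.1 ± 3.87 CPM, also below all Control libraries. Mmp24, a membrane protease with high expression in neurons, was at 60.1 ± 8.76 CPM in Glutamate and 107 ± 26.9 CPM in Memantine, without overlap (log2 fold change 0.84, adjusted p = 0.870). The neuronal marker sum was lower than in Control in every Glutamate and preparation library and higher than in Glutamate in 2 of 3 Memantine libraries, and its part in the values of Mmp17 and Mmp24 was not tested.

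Of 18 further ADAMTS proteases, 17 were tested, and they did not go one way. Adamts15 was at 4.97 ± 1.70 CPM in Control and 1.40 ± 1.37 CPM in Glutamate (log2 fold change -1.84, adjusted p = 0.592), and at 7.39 ± 5.53 CPM in Memantine. Adamts7 was at 20.04 ± 4.69 CPM in Glutamate_vesicles, above all Glutamate libraries (6.24 ± 3.22 CPM, log2 fold change 1.68, adjusted p = 1.00) and above all Control libraries (5.53 ± 2.74 CPM, log2 fold change 1.83, adjusted p = 0.182). Adamts18 was at 0.427 ± 0.254 CPM in Glutamate and 0.0267 ± 0.0463 CPM in Glutamate_vesicles, levels that rest on few counts. Against Control, 4 of 17 had p under 0.05 in Glutamate_vesicles (2 higher, 2 lower), 2 in Glutamate_secret and 3 in Glutamate_BPC (all lower). Over all rows, 11.6%, 11.8% and 11.3% had such a p in these comparisons. None of the 7 ADAM proteases had p under 0.05 in any comparison.

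The genes whose levels most resembled those of Timp1 over the 18 libraries, among 11879 genes whose log2 CPM averaged at least 1, were Gss (Pearson r = 0.969), S100a10 (0.961), Ier5l (0.957), Gtf2h2 (0.956) and Pdlim7 (0.955). After the mean of each replicate number was subtracted, S100a10 (0.978), Gss (0.961), Ier5l (0.961), Bcl2l12 (0.955) and Hspb1 (0.952) came first, so that 3 genes stood in both lists. S100a10 encodes a partner of annexin A2 and Gss encodes glutathione synthetase. For Adamts1 the first genes were Uaca (0.941), Adss (0.940), Spred3 (0.934), Has2 (0.933) and Tgif1 (0.933), and after subtraction Cd44 (0.954), Adss (0.946), Errfi1 (0.945), Itgb1 (0.943) and Hspa5 (0.943). Has2, which makes hyaluronan, stood only in the list before subtraction. Cd44, a receptor of hyaluronan, stood only in the list after it. These values describe libraries that share groups, replicate numbers, depth and rRNA share, and carry no test.

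Among the members themselves, Timp1 was closest to Timp4 over the 18 libraries (r = 0.706, and 0.554 after subtraction of the replicate-number means). With Adamts1 it had r = 0.289 before and 0.664 after subtraction. Timp2 and Adamts1 ran in opposite directions in both (r = -0.655 and -0.644). Mmp14 had r = -0.259 with Timp1 and 0.0667 with Adamts1.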

How the data were processed

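The authors deposited expected counts per gene, made with Salmon and summed by tximport according to the study's methods. The labels' processing notes also name STAR and the build rn6. The Salmon version and the strand setting are not given in the sources used here, and paper and labels name different platforms. Counts were rounded. The files differ in depth from 8409574 to 17206354 counts, which limits Mmp3 and Mmp9.

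Genes were filtered with filterByExpr (minimum count 10, minimum total 15), scaled by TMM and tested with the two-sided quasi-likelihood test of edgeR 4.0.16 in R 4.3.3, with 1 mean per group over 18 libraries and Benjamini-Hochberg adjustment over 14398 rows. The design had been written for counts. CPM values are edgeR's at the TMM-scaled library size, without a prior count, and log2 CPM used a prior count of 2. Each SE is the size of the log2 fold change divided by the square root of the test statistic. It is not an SE given by the fit itself. The scripts were tested on simulated data. DESeq2 1.42.0 was an alternative.

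The members and lists were chosen with earlier results of these data known. Fold changes are given for all tested members in Glutamate against Control, and otherwise for those with p under 0.05, or the smallest p where none had. The list genes named are up to 3 per list and comparison with the smallest p under 0.05. One gene of the activators and partners is not reported here. Values for other members and for correlations among members were added after they were seen. Replicate numbers from the sample titles were held to pair libraries where every same-numbered pair had deviations from the group means correlated above 0.1. This was so for Memantine, Glutamate_secret and Glutamate_BPC with Glutamate (lowest r = 0.573, 0.445 and 0.453) and Glutamate_vesicles with Control (0.208).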

Additional observations from a re-analysis of the deposited data

How the results depend on the processing

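The count of members called was 0 in all 9 comparisons and in the test over the 6 groups, and it stayed at 0 when each library was left out in turn, with other size factors, without the filter on low counts, without rRNA rows, with only the 2 groups in the fit and without the libraries numbered 2, a setting chosen after seeing the data. It became 2 in Glutamate_vesicles against Control with the likelihood-ratio test, with DESeq2 and with the replicate block, and 1 with the rRNA share as a covariate. The share of all rows called there was 1.11%, 3.39%, 3.74% and 0.396% in this order. In Glutamate_secret and in Glutamate_BPC against Control it became 1 with DESeq2, 1 with the replicate block and 1 with the rRNA share, and in Glutamate against Control 1 with the rRNA share. In the test over the 6 groups it became 1 with the replicate block (Timp1, adjusted p = 0.0346, 3.45% of all rows called) and 1 with the rRNA share (Adamts1). With the replicate block, Timp1 had adjusted p = 0.0206 in Glutamate_secret and 0.0469 in Glutamate_BPC against Control (4.86% and 1.74% of all rows called), where the numbers do not pair the libraries by the check (lowest r = -0.454 and -0.259). The block changed no other call. In Glutamate against Control it gave Timp1 a log2 fold change of 1.73 (adjusted p = 0.169), with r from -0.117 to 0.591 between same-numbered libraries.

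In Glutamate against Control, Timp3 turned from 1.23 to -0.37 and Timp2 from -0.17 to 0.0357 without the libraries numbered 2. With 1 library left out, Timp3 ranged from -0.40 to 1.70 and Timp2 from -0.35 to 0.00242, both turning without Glutamate 2. In Glutamate_secret against Control, Adamts1 was 0.53 without the libraries numbered 2. The cause was not tested. Of the fold changes that the rule names, no other turned under these alternatives. With the replicate block, 4 of the 63 fold changes of the 7 members in the 9 comparisons turned, a count made after seeing the data, namely Adamts1 in Glutamate_secret against Glutamate (0.02 to -0.35), Timp3 and Timp4 in Memantine against Control (0.58 to -0.18 and 0.00342 to -0.32) and Timp2 in Glutamate_secret against Control (0.04 to -0.01).

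Ranked by Spearman's rho, Gss stayed first for Timp1 (rho = 0.957) and Cd44 came first for Adamts1 (rho = 0.963). Of the genes named for Adamts1 before subtraction, Uaca was at rank 2 and Has2 at rank 47.5 by rho. After subtraction, Hspa5 was at rank 1 and Itgb1 at rank 95.5. With 3 libraries a group and SE up to 1.36 on the log2 scale, small differences could not be resolved.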
